A study of Mus musculus with 16 samples.

Results

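GM-CSF grown and M-CSF grown mouse bone marrow derived macrophages (BMDMs) were compared on untreated polystyrene dishes (noTC) at steady state. The comparison set the 2 libraries labelled GM-noTC against the 2 labelled M-noTC, which are 4 of the 16 libraries of the series, and was read across all genes with enough counts to be tested. Bone marrow cells of C57BL/6J mice aged 8 weeks were grown for 7 days without a change of medium. GM-noTC cells received 20 ng/ml GM-CSF and were seeded at 1000000 cells per ml, and M-noTC cells received 50 ng/ml M-CSF and were seeded at 500000 cells per ml. Both groups were then given vehicle and no LPS. Growth factor, its concentration and the seeding density therefore change together and cannot be told apart. The other libraries come from dishes treated for tissue culture (TC) and from cells given LPS for 3 h on either dish. Each culture was an unsorted bulk population, in which fewer cells of a type and less RNA per cell cannot be told apart. The study calls the libraries of a group biological replicates. Neither the labels nor its methods say whether they came from separate mice or separate cultures, so p-values measure only the spread between these libraries.

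M-CSF acts through the receptor tyrosine kinase CSF1R, is present in the body at steady state and maintains most tissue macrophages. GM-CSF acts through a receptor made of a specific alpha chain and a beta chain shared with IL-3 and IL-5, which activates the kinase JAK2 and the transcription factor STAT5. It is needed for lung alveolar macrophages, and in marrow culture it gives a mixture of macrophage and dendritic cell states with much surface MHC class II.

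The deposited values were estimated counts per gene. GM-noTC libraries held 21785799 and 24040524 counts and M-noTC libraries 21403313 and 31458363. At these depths 3 counts stand for between 0.0954 and 0.14 counts per 1000000 counts of a library (CPM), a floor that covers counting error only, as do the counting intervals given for scarce genes. Of 22287 genes in the table, 16756 had a count, and 12514 passed edgeR's filter on low counts and were tested in 1 quasi-likelihood fit over all 16 libraries. CPM values of genes are scaled with TMM factors and are not corrected for gene length, so they compare libraries and not genes. The spread between the 2 libraries of a group, as a chi-square per degree of freedom across genes that is 1 for sampling noise alone, was 1.91 in GM-noTC and 2.62 in M-noTC. In the other 6 groups it ran from 2.19 in M-TC to 12.5 in GM-TC. Some genes low on TC dishes stood higher on noTC dishes, by a small percentage of their level in other libraries. This percentage was similar for most of these genes. This share of the other libraries was read from genes below 1 CPM on TC dishes. They averaged 100 CPM or more in the 10 libraries outside the own group and the TC steady state groups. The share is the excess of noTC over TC in percent of that average. The median was 0.675% over 15 such genes in GM-noTC, of which 14 lay within 1.5-fold, and 0.6% over 19 genes in M-noTC, of which 17 lay within 1.5-fold. The genes ran from 0.39% to 0.907% in GM-noTC and from 0.0084% for Rbp4 to 0.845% in M-noTC. Percentages given beside genes below are of the level itself and not of its excess over TC. A level near the share can come without a clear excess, as for Rbp4 and Chil3 in M-noTC. For each gene described, a noTC level at or below 1.5 times this share of the mean in those other libraries is given as a percentage beside the gene, or as counts where it rests on 3 counts or fewer. Percentages a little above that limit are given for some genes. For the genes from which the share was read, nearness to it follows in part from that choice. They include Il6, Il12b and Nos2 in both groups and Cxcl10 and Cd40 in GM-noTC. In M-noTC they include Il1a, Ccl17, Ccl22, Inhba, Olr1 and Rbp4. What gives rise to the share was not tested. Subtracting it from the noTC libraries gave a larger log2 fold change, in the same direction, for each DEG with such a percentage. The subtraction takes much of the lower group's level, so this outcome was fixed in advance and is no separate support.

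Genes were called as DEGs at a Benjamini-Hochberg adjusted p under 0.05 and a fold change above 2. Against M-noTC, GM-noTC cells upregulated 1622 DEGs and downregulated 1151, which are 13% and 9.2% of the tested genes and 22.2% in all. Counts of called list members given below are to be read beside these shares. Over all tested genes the log2 fold change had a median of 0. Downregulated genes were 41.5% of the DEGs, and 55.8% when libraries were scaled by their size only, which gave 1360 upregulated and 1716 downregulated DEGs and moved the median of all genes to -0.29. Without the fold threshold, 3928 genes were higher (31.4%) and 3837 lower (30.7%). The 2 groups did not overlap in 2764 of the 2773 DEGs, against 83.5% of all tested genes. Large changes lay mostly on the GM-CSF side, with 695 upregulated and 168 downregulated DEGs above 8-fold and 313 and 45 above 32-fold. An exact permutation test of 2 against 2 libraries cannot give a two-sided p below 0.333, so the calls rest on the spread shared by all groups, a biological coefficient of variation of 4.75%. The M-noTC level lay at or below 1.5 times the share of the other libraries in 173 of the upregulated DEGs, of which 149 were also upregulated on TC dishes. The GM-noTC level did so in 28 of the downregulated DEGs, of which 19 were also downregulated on TC dishes.

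**Figure D1:**
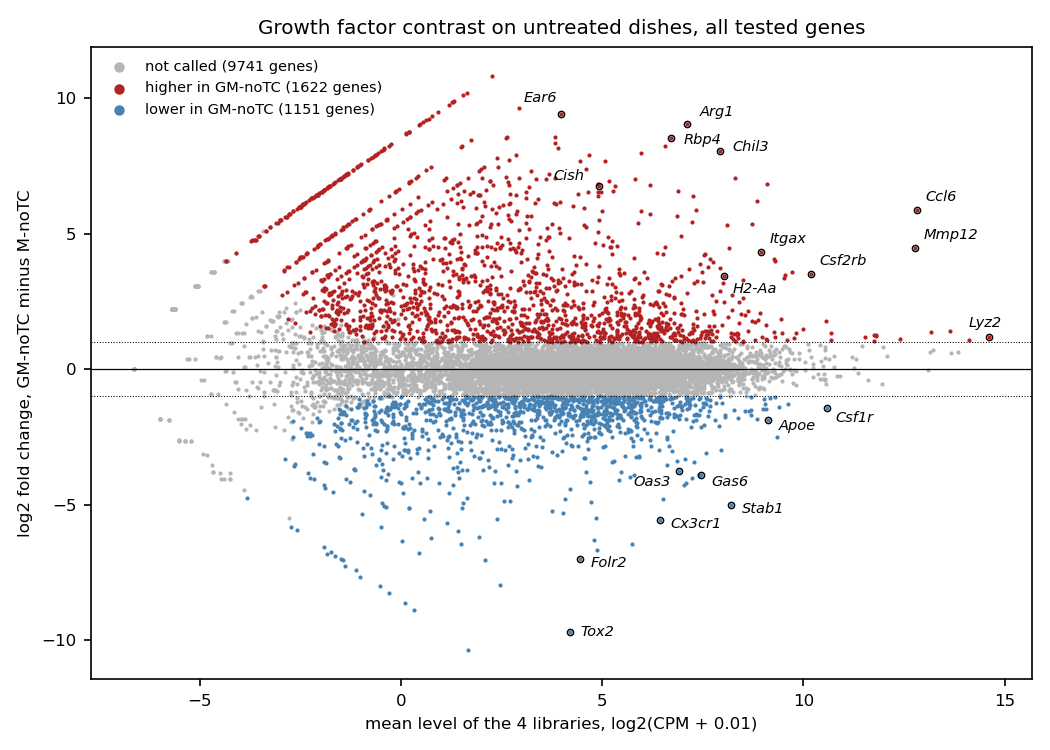
Each point is 1 of 12514 tested genes, with the mean level of the noTC libraries on the x axis and the log2 fold change of GM-noTC over M-noTC on the y axis. The 1622 upregulated DEGs spread further from 0 than the 1151 downregulated DEGs.

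Among genes with a mean of 20 CPM or more in the higher group, the 10 largest increases included enzymes and secreted proteins. Arg1, which encodes the arginine degrading enzyme arginase 1, had 275 and 275 CPM in GM-noTC and 0.472 and 0.557 CPM in M-noTC, a log2 fold change of 9.03 (standard error 0.25, adjusted p = 2e-18 from edgeR). Chil3, a chitinase-like protein of activated and alveolar macrophages, had 502 and 460 CPM against 2.43 and 1.39 CPM. Both pairs of libraries lay far apart. In M-noTC, Arg1 was at 0.735% and Chil3 at 0.692% of its mean in the other libraries. In M-TC, Arg1 had 0.239 and 0.112 CPM and Chil3 had 2.11 and 1.91 CPM. Rbp4, the plasma carrier of retinol, had 211 and 209 CPM against 0.607 and 0.534 CPM, with M-noTC at 0.59% of the others. In M-TC, Rbp4 had 0.479 and 0.636 CPM, so M-noTC held little excess over TC. Spint1, a membrane inhibitor of serine proteases, rose 302-fold, Cyp1b1, a cytochrome P450, 240-fold and Ccn3, a matricellular protein, 254-fold, with M-noTC at 0.909% of the others for Ccn3. Ear6, an eosinophil-associated ribonuclease with near-identical copies that make its reads uncertain, had 30.4 and 32.9 CPM in GM-noTC and 3 counts in all in M-noTC, a ratio of 768 with a 95% exact counting interval of 262 to 3730. Amigo2, Rnase2a and Gpr171 were the other members, with log2 fold changes of 8.57, 8.34 and 8.18. In M-noTC, Rnase2a stood at 0.569% and Amigo2 at 1.08% of the other libraries.

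The 10 largest decreases by the same rule were led by Tox2, a transcription factor of the HMG box family. Tox2 had 36.7 and 36.5 CPM in M-noTC and 2 counts in all in GM-noTC, a ratio of 943 with a counting interval of 261 to 7790. Folr2, the folate receptor beta that marks many resident macrophages, had 0.245 and 0.407 CPM in GM-noTC and 41.9 and 44.3 CPM in M-noTC, a log2 fold change of -7.01. Cx3cr1, the fractalkine receptor of monocytes and microglia, had 3.47 and 3.58 CPM against 171 and 165 CPM. Stab1, a scavenger receptor, had 18.3 and 17.3 CPM against 561 and 588 CPM (adjusted p = 1.4e-23 from edgeR). The rule took only DEGs whose groups did not overlap. Hmga2, a chromatin protein, fell 102-fold and Col18a1, a basement membrane collagen, 79.7-fold. Pcp4l1, Ms4a6b, Clec4a1 and Cacna1a completed the set, with log2 fold changes of -6.47, -5.51, -5.32 and -5.25.

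Both groups carried the RNA of macrophages. All 11 genes of the macrophage marker list, some of them not limited to macrophages, were tested and had counts in both groups. These markers summed to 45700 and 45500 CPM in GM-noTC and to 25400 and 26800 CPM in M-noTC. Most of each sum was Lyz2. Of these markers 2 were upregulated and 2 downregulated, with a median log2 fold change of -0.1. Lyz2, the lysozyme of myeloid cells, had 35100 and 34800 CPM in GM-noTC and 14900 and 15900 CPM in M-noTC. With library size only the log2 fold change of Lyz2 was 0.89, below the fold threshold. Itgam, which encodes CD11b, had 2390 and 2350 CPM against 941 and 948 CPM. In the other direction, Adgre1, which encodes F4/80, had 280 and 267 CPM in GM-noTC and 739 and 765 CPM in M-noTC, and Cd14, the LPS coreceptor, fell 2.96-fold.

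The receptors of the growth factors moved in opposite directions. Csf1r, the M-CSF receptor, had 819 and 837 CPM in GM-noTC and 2180 and 2270 CPM in M-noTC, a log2 fold change of -1.43 (standard error 0.0521, adjusted p = 2.6e-16 from edgeR). Csf2rb, the shared beta chain of the GM-CSF receptor, had 2160 and 2150 CPM in GM-noTC and 184 and 192 CPM in M-noTC, a 11.5-fold increase. Its near-identical neighbour Csf2rb2 rose 4.17-fold, and the split of reads between them is uncertain. The ligand-specific alpha chain Csf2ra stood at 153 and 156 CPM against 82.7 and 88.1 CPM, below the fold threshold. Csf1, the gene of M-CSF itself, had 69.1 and 66.4 CPM in GM-noTC and 7.38 and 7.83 CPM in M-noTC. Csf3r, the receptor of G-CSF, fell 9.08-fold. Of 10 receptor and ligand genes 9 were tested, with 3 upregulated, 2 downregulated and a median of 0.85.

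Targets of STAT5, its SOCS feedback inhibitors and the pathway genes Jak2, Stat5a and Stat5b made a list of 12 members. Of these, 6 were upregulated, Jak2 among them, and 0 downregulated, with a median log2 fold change of 1.14. The RefSeq promoter of Cish, a feedback inhibitor that binds cytokine receptors, is shown because it is a textbook STAT5 target. In build GRCm38.p6 it lies at chr9:107296409-107296708 on the plus strand, from 250 bases before to 50 bases after the start site. Capitals mark the 2 matches to TTCNNNGAA, the letters that STAT5 prefers, searched on both strands, which occur in 8.3% of the 32851 promoters of the table.
Cish: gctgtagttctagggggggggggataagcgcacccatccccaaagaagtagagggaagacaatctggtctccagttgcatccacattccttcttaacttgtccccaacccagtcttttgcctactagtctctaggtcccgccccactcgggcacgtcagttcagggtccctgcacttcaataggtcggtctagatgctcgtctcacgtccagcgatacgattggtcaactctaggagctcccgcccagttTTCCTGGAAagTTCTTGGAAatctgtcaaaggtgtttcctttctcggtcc
Cish had 59.8 and 60.7 CPM in GM-noTC and 0.539 and 0.557 CPM in M-noTC, a log2 fold change of 6.76, with M-noTC at 0.766% of the other libraries. Its relative Socs2 had 71.6 and 69.9 CPM against 0.303 and 0.743 CPM. Both genes were below 1 CPM in M-noTC and the groups lay far apart. Socs3 rose 9.15-fold, Socs1 5.13-fold, the kinase Pim1 3.62-fold and Jak2, the kinase bound to the receptor, 2.54-fold. Socs3 stood at 0.94% of the other libraries in M-noTC. Stat5a and Stat5b stayed below the fold threshold, at 0.4 and 0.07 on the log2 scale. Of the 142 key genes of the lists, 95 had a promoter in the table and 7 of these held the motif. The letters TGCTGA, found in MAF sites, were in 19 and GAGGAA, the PU.1 core, in 47, against 19.5% and 28.3% of all promoters. Key genes were counted for a match in any of their promoters, 117 in all, while the percentages count single promoters. A match is a description of letters and not a site of binding.

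Transcription factors of macrophages split between the groups, with 13 of 28 upregulated and 6 downregulated. Irf4, which directs antigen presenting cells, had 71.3 and 72.7 CPM in GM-noTC and 4.25 and 3.48 CPM in M-noTC. Bhlhe40, which sustains macrophage proliferation, had 330 and 320 CPM against 21.5 and 22.7 CPM. Egr2 had 127 and 122 CPM against 13.4 and 11.2 CPM. Batf3 and Zbtb46, factors of conventional dendritic cells, were upregulated from below 0.3 CPM, Batf3 to 4.12 and 3.51 CPM and Zbtb46 to 2.69 and 2.25 CPM. On the M-CSF side, Maf had 23.5 and 26.9 CPM in GM-noTC and 170 and 187 CPM in M-noTC. Maf restrains the self-renewal of macrophages. Id3, a helix-loop-helix inhibitor of Kupffer cells, fell by 4.19 and Nr4a1, a nuclear receptor of patrolling monocytes, by 2.47 on the log2 scale, both from below 3 CPM. Pparg, the nuclear receptor that GM-CSF induces in alveolar macrophages, was at 38.9 and 37.7 CPM against 28.4 and 25.8 CPM, below the fold threshold, and the log2 fold change of Irf8 was -0.13.

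**Figure D2:**
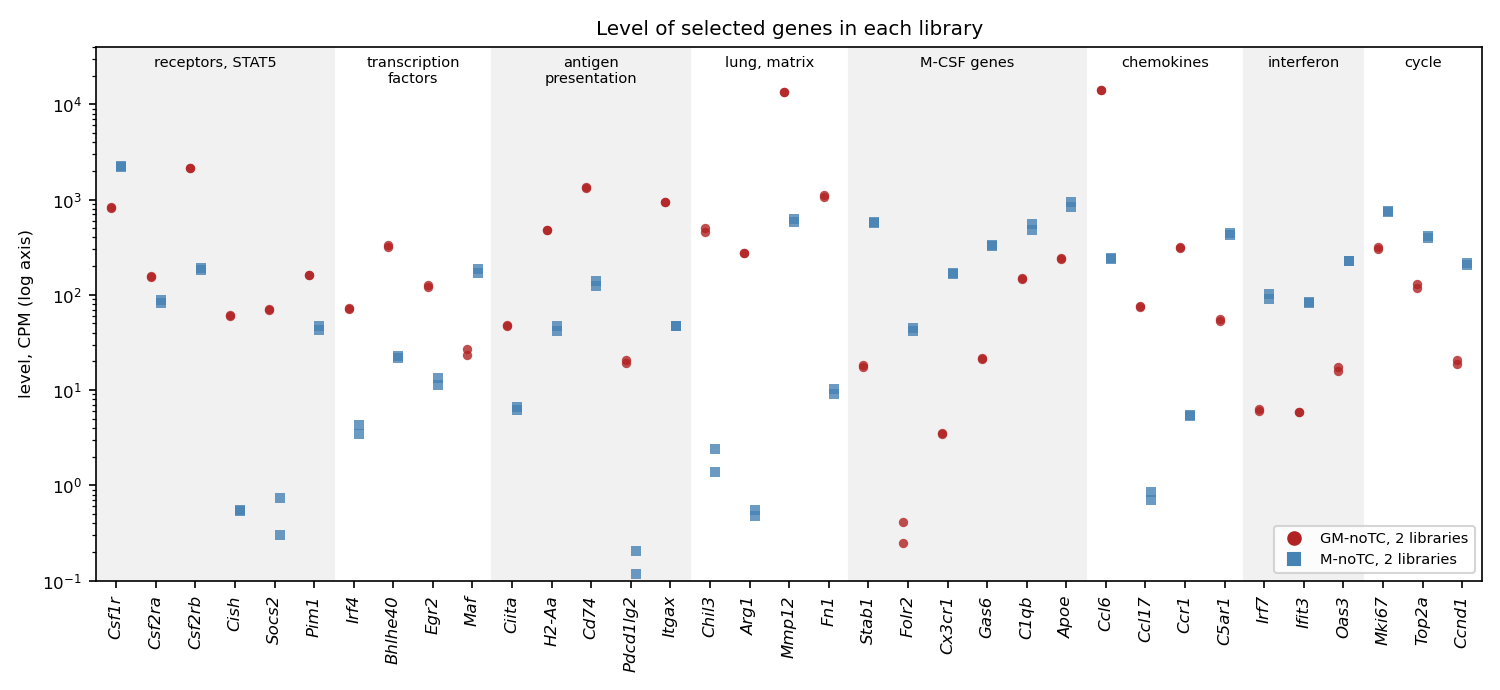
Each symbol is the level of a gene in 1 library, in CPM on a log axis, for GM-noTC and M-noTC with 2 libraries each. The groups are apart in every gene shown, and Csf1r, Maf, Folr2, Irf7 and Ccnd1 are among those higher in M-noTC.

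The machinery of MHC class II presentation was higher in GM-noTC. All 11 members were tested and 10 were upregulated, with a median log2 fold change of 3.38 and a summed level of 2570 and 2570 CPM against 234 and 264 CPM. The RefSeq promoter of H2-Aa, the alpha chain of I-A, is shown for letters found in several class II promoters. It lies on the minus strand at chr17:34287774-34288073 of GRCm38.p6, and capitals mark CTGATTGG, which contains the Y box, searched on both strands.
H2-Aa: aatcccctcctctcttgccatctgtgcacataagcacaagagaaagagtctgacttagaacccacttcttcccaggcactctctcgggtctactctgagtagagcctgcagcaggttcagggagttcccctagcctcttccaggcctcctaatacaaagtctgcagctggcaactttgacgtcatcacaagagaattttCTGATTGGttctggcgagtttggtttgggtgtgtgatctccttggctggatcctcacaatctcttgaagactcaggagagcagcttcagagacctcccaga
Of the 11 members, 8 had a promoter in the table and 4 held these letters in any of theirs (50%). Of all promoters, counted singly, 4.1% held them, and the motif was chosen with the results known. H2-Aa had 481 and 476 CPM in GM-noTC and 41.6 and 46.5 CPM in M-noTC, a log2 fold change of 3.44 (standard error 0.0755, adjusted p = 3.3e-20 from edgeR). The beta chain H2-Ab1 rose 13-fold, H2-Eb1 10.4-fold and the invariant chain Cd74 10.2-fold. Ciita, the transactivator of these genes, had 47.2 and 47.8 CPM against 6.2 and 6.71 CPM. H2-DMb2, a chain of the peptide exchange factor H2-DM, rose 68.2-fold, and H2-Eb2 did not pass, at 1.93. MHC class I genes were upregulated in 0 of 16 members and downregulated in 1, against 13% and 9.2% of all tested genes. Their median was -0.18. The downregulated member was Psmb9, an immunoproteasome subunit that fell 2.03-fold. Without GM-noTC library 1 or M-noTC library 2 the log2 fold change of Psmb9 was -0.98 and -0.98, and it was not called.

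Of 13 costimulatory and inhibitory ligands for T cells, 6 were upregulated and 3 downregulated. Pdcd1lg2, which encodes PD-L2, had 20.7 and 19.4 CPM in GM-noTC and 0.202 and 0.116 CPM in M-noTC, a 128-fold increase. Cd274, which encodes PD-L1, rose 9.1-fold and Cd80 8.34-fold. Cd86 had 15 and 16.7 CPM against 7.21 and 7.78 CPM and was not called with library size only or without GM-noTC library 2, where the log2 fold change of Cd86 was 0.78 and 0.98. Cd40, Cd83 and Tnfsf9 fell by 1.34, 1.58 and 1.59 on the log2 scale. Cd40 stood at 2.61 and 2.11 CPM in GM-noTC, 0.876% of its mean in the other libraries.

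Dendritic cell genes were upregulated in 17 of 19 tested members of 21, with a median log2 fold change of 4.42 and 0 downregulated. Itgax, which encodes CD11c, had 947 and 941 CPM in GM-noTC and 47 and 47.1 CPM in M-noTC. Mgl2, a galactose lectin whose reads may be shared with Clec10a, rose 130-fold. Clec9a, a receptor for dead cells on cross-presenting dendritic cells, had 29.4 and 31.2 CPM against 0.438 and 0.395 CPM. Ccr7, the lymph node homing receptor, had 9.46 and 8.54 CPM against 0.236 and 0.232 CPM, and Dpp4, which encodes CD26, 12.6 and 13.2 CPM against 0.202 and 0.163 CPM. Clec10a and Snx22 were not called, and Flt3, the receptor on which dendritic cell development depends, and Siglech did not pass the filter on low counts.

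Genes typical of M-CSF and tissue resident macrophages moved in both directions. Of 22 members 20 were tested, 10 were downregulated and 6 upregulated, and the median log2 fold change was -1.33. Selenop, a selenium carrier, had 200 and 203 CPM in GM-noTC and 682 and 752 CPM in M-noTC. Apoe, the lipid carrier, had 236 and 242 CPM against 827 and 932 CPM. Gas6, a ligand of the TAM receptors, had 21.9 and 21.4 CPM against 322 and 335 CPM. The upregulated members were F13a1, Mrc1, Pf4, P2ry13, Mertk and Gpr34. Mrc1, the mannose receptor CD206 often used as a marker of alternative activation, had 584 and 554 CPM in GM-noTC and 99.3 and 106 CPM in M-noTC. Cd163, the haemoglobin scavenger receptor, was low in both groups, at 2.04 and 2.44 CPM against 4.95 and 6.57 CPM. Lyve1 and Cd209f did not pass the filter.

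Complement genes were upregulated in 5 and downregulated in 5 of 18 tested members. The chains of C1q, the opsonin that starts the classical pathway, were each lower in GM-noTC. C1qb had 147 and 150 CPM against 479 and 549 CPM (adjusted p = 6.2e-16 from edgeR), and C1qa and C1qc fell 2.46-fold and 4.31-fold. The anaphylatoxin receptors C5ar1 and C3ar1 fell 8.01-fold and 2.11-fold. C3 itself had 311 and 317 CPM against 267 and 301 CPM. Genes of efferocytosis, the uptake of dead cells, were upregulated in 6 and downregulated in 4 of 18 tested members. The TAM receptors Axl, Mertk and Tyro3 were all higher in GM-noTC. Axl had 644 and 638 CPM against 145 and 142 CPM and Mertk 93 and 88.2 CPM against 19 and 23.9 CPM. Tyro3 had 15.2 and 15.2 CPM in GM-noTC and 1 count in all in M-noTC, a ratio of 1110 with a counting interval of 198 to 43700. Of their ligands Gas6 was lower in GM-noTC, as given above, and Pros1 was higher by 1.86 on the log2 scale. The medians of both lists, -0.09 and -0.07, were near 0 and changed sign under some settings given in the closing section.

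Genes of alveolar macrophages, which need GM-CSF in the lung, were upregulated in 11 of 16 tested members of 18, with a median log2 fold change of 3.38. Atp6v0d2, a subunit of the vacuolar proton pump, had 1170 and 1170 CPM in GM-noTC and 71.3 and 68.1 CPM in M-noTC. Fabp5 and Fabp4, fatty acid binding proteins, rose 3.09-fold and 2.89-fold. Car4, a carbonic anhydrase of the cell surface, had 24.7 and 25.9 CPM against 0.202 and 0.139 CPM. Olr1, a receptor for oxidised LDL, had 59.2 and 58.6 CPM against 0.775 and 0.65 CPM. The M-noTC level of Car4 was 0.49% and that of Olr1 0.858% of the mean in the other libraries. Ear1, a ribonuclease with near-identical copies, had no count in M-noTC and was at least 28.7-fold higher in GM-noTC, against a floor of 3 counts over the group. Marco, a scavenger receptor of alveolar macrophages, had 1.92 and 2.51 CPM against 1.58 and 1.93 CPM and was not called, as were Cd36, Lpl, Plin2 and Spp1.

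C-type lectins, receptors for sugars, were upregulated in 10 and downregulated in 3 of 19 tested members of 24. Several lie in clusters of similar genes, where the split of reads is uncertain. Clec4n, which encodes Dectin-2, had 613 and 642 CPM in GM-noTC and 4.78 and 4.72 CPM in M-noTC. Clec7a, which encodes the beta-glucan receptor Dectin-1, had 1370 and 1350 CPM against 121 and 125 CPM. Clec4e, the glycolipid receptor Mincle, moved the other way, with 36.9 and 35.8 CPM in GM-noTC and 176 and 184 CPM in M-noTC, and Clec12a, an inhibitory receptor, fell 14.9-fold. Among Fc receptors, the inhibitory Fcgr2b rose 12-fold and the activating Fcgr3 3.53-fold. Fcgr4 rose 2.13-fold, and with library size only the log2 fold change of Fcgr4 was 0.8 and not called. The high affinity receptor Fcgr1 had 60.3 and 67 CPM against 118 and 127 CPM, just below the fold threshold. It was called as lower with library size only or without GM-noTC library 2 or M-noTC library 1, where the log2 fold change of Fcgr1 was -1.24, -1.03 and -1.01. The median log2 fold change of Fc receptors was 0.26 over 7 tested members and -0.03 with library size only. Scavenger receptors were upregulated in 4 of 13 tested members, among them Msr1 at 3.23-fold and Colec12 at 4.74-fold, and downregulated in 3, namely Stab1, Cd163 and Cd5l.

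Of 31 tested integrin and adhesion genes, 15 were upregulated and 5 downregulated. Fn1, fibronectin, had 1110 and 1070 CPM in GM-noTC and 10.3 and 9.11 CPM in M-noTC, a 113-fold increase. Itgb2, the beta chain of the leukocyte integrins, had 2330 and 2300 CPM against 686 and 684 CPM, and its partners Itgal and Itgam rose 3.29-fold and 2.51-fold. Cdh1, which encodes E-cadherin, had 48.6 and 48.2 CPM against 0.168 and 0.372 CPM. Itgae, the integrin chain that binds it, had 7.38 and 7.76 CPM against 0.0674 and 0.0929 CPM. Itga6, a chain of laminin receptors, and Itgav, a chain of vitronectin receptors, fell 7.21-fold and 2.31-fold.

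Matrix proteases and their inhibitors were upregulated in 15 of 21 members, with a median log2 fold change of 2.69, and downregulated in 2. Mmp12, macrophage elastase, had 13400 and 13600 CPM in GM-noTC and 625 and 583 CPM in M-noTC. The collagenases Mmp8 and Mmp13 rose 73.9-fold and 22.8-fold, and the membrane protease Mmp14 17.8-fold. Mmp9 and Adam8 were the downregulated members, Mmp9 from a low level of 6.03 and 7.36 CPM in M-noTC to 3.06 and 2.88 CPM in GM-noTC.

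Chemokines were upregulated in 11 of 25 tested members of 26 and downregulated in 1. Ccl6, a chemokine of myeloid cells, had 14100 and 14200 CPM in GM-noTC and 236 and 243 CPM in M-noTC, a log2 fold change of 5.89 (standard error 0.073, adjusted p = 6.3e-24 from edgeR). Ccl17, which attracts T cells that carry CCR4, had 76.7 and 75.3 CPM against 0.708 and 0.859 CPM, with M-noTC at 0.939% of the other libraries. Ccl2 and Ccl3, which recruit monocytes and other leukocytes, rose 5.5-fold and 3.08-fold. Ccl9 stood at 1470 and 1440 CPM against 749 and 785 CPM, below the fold threshold. Chemoattractant receptors were called in 12 of 13 members, 8 upward and 4 downward. Ccr1 had 316 and 313 CPM in GM-noTC and 5.46 and 5.32 CPM in M-noTC. Ccr2, the receptor of inflammatory monocytes, had 79.9 and 72.7 CPM against 12.1 and 13.6 CPM. Cx3cr1, C5ar1, Cxcr3 and Ccr3 were the downregulated members, of which Cxcr3 and Ccr3 were below 4 CPM in every noTC library.

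Cytokines were upregulated in 7 and downregulated in 4 of 24 members. Il1rn, the antagonist of the IL-1 receptor, had 371 and 369 CPM in GM-noTC and 28.6 and 26.2 CPM in M-noTC. Inhba, the activin A chain, had 111 and 121 CPM against 2.93 and 2.58 CPM, with M-noTC at 0.582% of the other libraries. Il1a, an alarmin, had 90.3 and 92.9 CPM against 14.9 and 10.4 CPM. The M-noTC level of Il1a was 0.672% of the other libraries, and in M-TC it had 0.439 and 0.374 CPM. Il1b had 27.8 and 27.3 CPM against 14.3 and 12.1 CPM, with M-noTC at 0.71% of the others. With library size only or without M-noTC library 2 the log2 fold change of Il1b was 0.79 and 0.93, and it was not called. Il10, the anti-inflammatory cytokine, had 0.775 and 0.836 CPM in M-noTC and 3 counts in all in GM-noTC, a ratio of 14 with a counting interval of 4.55 to 69.6. Il12a rested on 8 counts in GM-noTC against 1, a ratio of 11.3 with an interval of 1.51 to 500, and was not called without GM-noTC library 2 or M-noTC library 2, where the log2 fold change of Il12a was 2.73 and 2.02.

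Il6, Il12b and Cxcl10, which LPS induces in macrophages, stood near the share of the other libraries in at least 1 noTC group. Il6 had 6.03 and 7.5 CPM in GM-noTC and 6.33 and 5.04 CPM in M-noTC (adjusted p = 0.14 from edgeR), or 0.692% and 0.712% of its mean in the other libraries. On TC dishes Il6 had 0.303 and 0.201 CPM in GM-TC and 0.0399 and 0 CPM in M-TC. Il12b, a subunit of IL-12 and IL-23, had 6.77 and 7.95 CPM against 5.59 and 4.39 CPM on noTC dishes, or 0.689% and 0.573% of the others. Both genes stood near the share of the other libraries in both groups. They are among the genes from which the share was read, so this nearness is no separate observation. The same holds for Cxcl10 in GM-noTC and for Nos2 in both groups. Cxcl10, an interferon induced chemokine, had 29.3 and 26.9 CPM in GM-noTC and 42.5 and 38.2 CPM in M-noTC, below the fold threshold, with GM-noTC at 0.681% and M-noTC at 1.2% of the others. On TC dishes Cxcl10 had 0.353 and 0.685 CPM in GM-TC and 23.5 and 26.7 CPM in M-TC. When the share was subtracted from the noTC libraries, Cxcl10 and Tnf were called as lower in GM-noTC, at -4.82 and -1.74 on the log2 scale. Nos2 was called as higher, at 1.47. For Cxcl10 in GM-noTC and Nos2 in both groups, subtraction leaves only the TC level and the distance from the median share. That excess was 0.668% for Cxcl10 in GM-noTC, and 0.907% in GM-noTC and 0.648% in M-noTC for Nos2. The values -4.82 and 1.47 are therefore no separate results. Without the subtraction Tnf had 25.8 and 32 CPM against 50.7 and 49.1 CPM, and Nos2, the inducible nitric oxide synthase, 4.53 and 5.1 CPM against 3.4 and 2.56 CPM, and neither was called. Nos2 stood at 1.02% of the other libraries in GM-noTC and 0.775% in M-noTC, and Tnf at 1.08% and 2.29%.

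**Figure D3:**
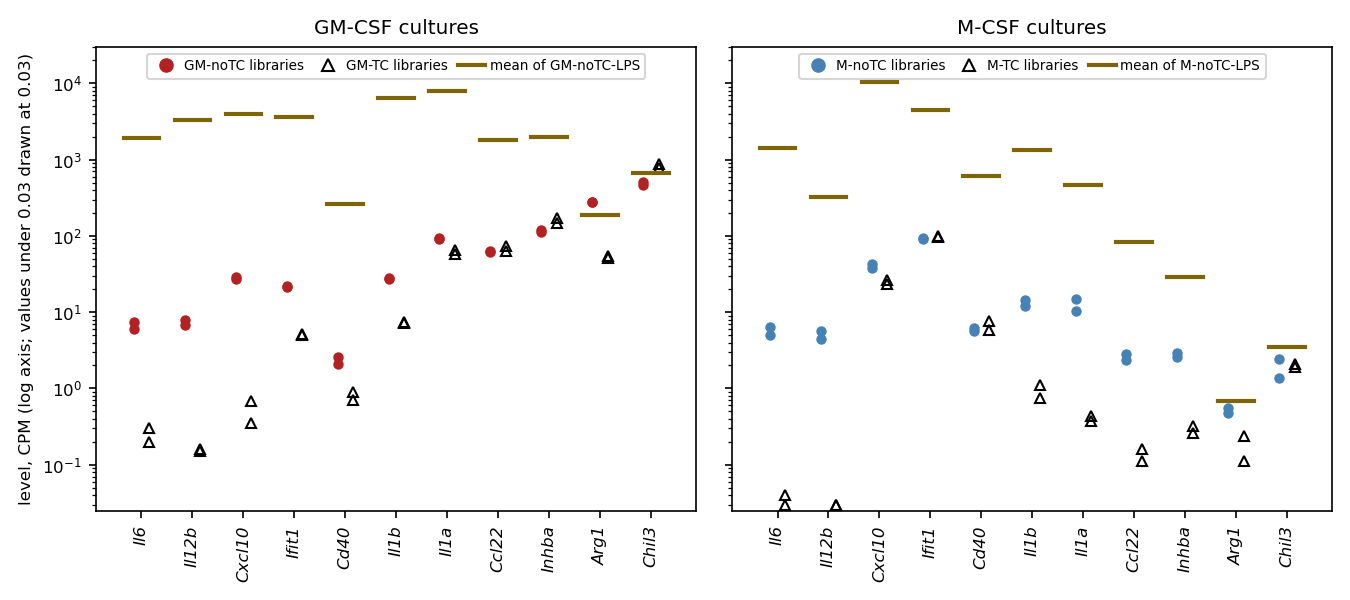
Levels of 11 genes in CPM on a log axis in GM-CSF and in M-CSF cultures, with circles for the 2 noTC libraries, triangles for the 2 TC libraries and bars for the mean of the LPS treated noTC libraries. Il6 and Il12b lie between 4.39 and 7.95 CPM in the 4 noTC libraries and lower on TC dishes.

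Interferon stimulated genes were lower in GM-noTC. All 34 members were tested, 30 were downregulated and 1 upregulated, and the median log2 fold change was -1.77. Their summed level was 1210 and 1270 CPM in GM-noTC and 3930 and 4050 CPM in M-noTC. The promoters of Ifit1 at chr19:34640639-34640938 and Ifit3 at chr19:34583279-34583578 on the plus strand and of Isg15 at chr4:156200769-156201068 on the minus strand of GRCm38.p6, from RefSeq, are shown because these are model genes of the interferon-stimulated response element. Capitals mark the core of this element, GAAA, any 2 bases and GAAA again, searched on both strands, so that a match on the opposite strand reads as its reverse complement.
Ifit1: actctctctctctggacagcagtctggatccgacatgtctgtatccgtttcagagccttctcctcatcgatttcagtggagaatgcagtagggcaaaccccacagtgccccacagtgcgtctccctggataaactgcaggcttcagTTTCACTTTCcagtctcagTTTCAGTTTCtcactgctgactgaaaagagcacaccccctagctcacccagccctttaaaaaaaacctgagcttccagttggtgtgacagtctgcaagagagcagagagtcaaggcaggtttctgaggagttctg
Ifit3: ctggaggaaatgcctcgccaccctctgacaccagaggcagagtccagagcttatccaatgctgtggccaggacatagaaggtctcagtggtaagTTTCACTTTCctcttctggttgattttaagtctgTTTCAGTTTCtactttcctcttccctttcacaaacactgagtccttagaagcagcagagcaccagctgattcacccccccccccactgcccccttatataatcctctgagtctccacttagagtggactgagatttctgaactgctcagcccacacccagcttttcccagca
Isg15: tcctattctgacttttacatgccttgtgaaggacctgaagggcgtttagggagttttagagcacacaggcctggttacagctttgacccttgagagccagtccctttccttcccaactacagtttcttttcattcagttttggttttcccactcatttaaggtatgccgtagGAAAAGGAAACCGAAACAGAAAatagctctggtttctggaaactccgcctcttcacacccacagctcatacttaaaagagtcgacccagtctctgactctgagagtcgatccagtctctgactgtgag
Ifit1 and Ifit3 held 2 matches each and Isg15 held 3 that overlap. Of the 34 members, 25 had a promoter in the table and 16 held the motif in any of theirs (64%). Of all promoters, counted singly, 3.44% held it, and the motif was chosen with the results known. Irf7, the factor that amplifies the interferon response, had 6.07 and 6.36 CPM in GM-noTC and 90.9 and 103 CPM in M-noTC, a log2 fold change of -3.97 (standard error 0.112, adjusted p = 2.6e-18 from edgeR). Oas3, which is activated by double stranded RNA, had 15.7 and 17.4 CPM against 226 and 224 CPM. Isg15, the ubiquitin-like modifier, had 3.1 and 3.88 CPM against 28.3 and 28.8 CPM. Ifit1, Ifit2 and Ifit3, which restrict viral RNA, fell 4.26-fold, 8.09-fold and 14-fold. In GM-noTC, Ifit1 stood at 0.929%, Ifit2 at 1.04% and Ifit3 at 1.21% of the other libraries. With the share subtracted, the log2 fold changes of Ifit1, Ifit2 and Ifit3 were -3.77, -4.43 and -4.94, against -2.09, -3.02 and -3.81. Mx1 fell 2.08-fold, and without M-noTC library 2 the log2 fold change of Mx1 was -0.98 and not called. The members that were not downregulated were the guanylate binding proteins Gbp2, Gbp3, Gbp5 and Gbp7, of which Gbp7 rose 3.07-fold. Gbp2, Gbp3, Gbp5 and Gbp7 also held the motif.

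Of 20 Toll-like receptor and LPS binding genes, 0 were upregulated and 5 downregulated. Tlr4, the LPS receptor, had 222 and 224 CPM in GM-noTC and 192 and 192 CPM in M-noTC. Cd14, which hands LPS to it, had 183 and 195 CPM against 547 and 569 CPM. The nucleic acid receptors Tlr9 and Tlr3 fell by 1.88 and 1.34 on the log2 scale, and Cd180 and Tlr5 were the other downregulated members.

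Genes of the cell cycle were downregulated in 37 and upregulated in 1 of 48 members, with a median log2 fold change of -1.27. Mki67, which marks cycling cells, had 316 and 300 CPM in GM-noTC and 763 and 741 CPM in M-noTC. Top2a, a topoisomerase of dividing cells, had 129 and 118 CPM against 415 and 393 CPM (adjusted p = 8.5e-17 from edgeR). Genes of DNA synthesis and of mitosis were both among them, such as Tk1 at -2.42, Mcm6 at -1.42, Ccnb2 at -2.19 and Plk1 at -1.9 on the log2 scale. The D cyclins, which couple growth factors to the cycle, moved apart. Ccnd1 had 20.9 and 19 CPM in GM-noTC and 217 and 205 CPM in M-noTC, while Ccnd2, the upregulated member, had 86.9 and 81.2 CPM against 30.1 and 29.5 CPM.

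**Figure D4:**
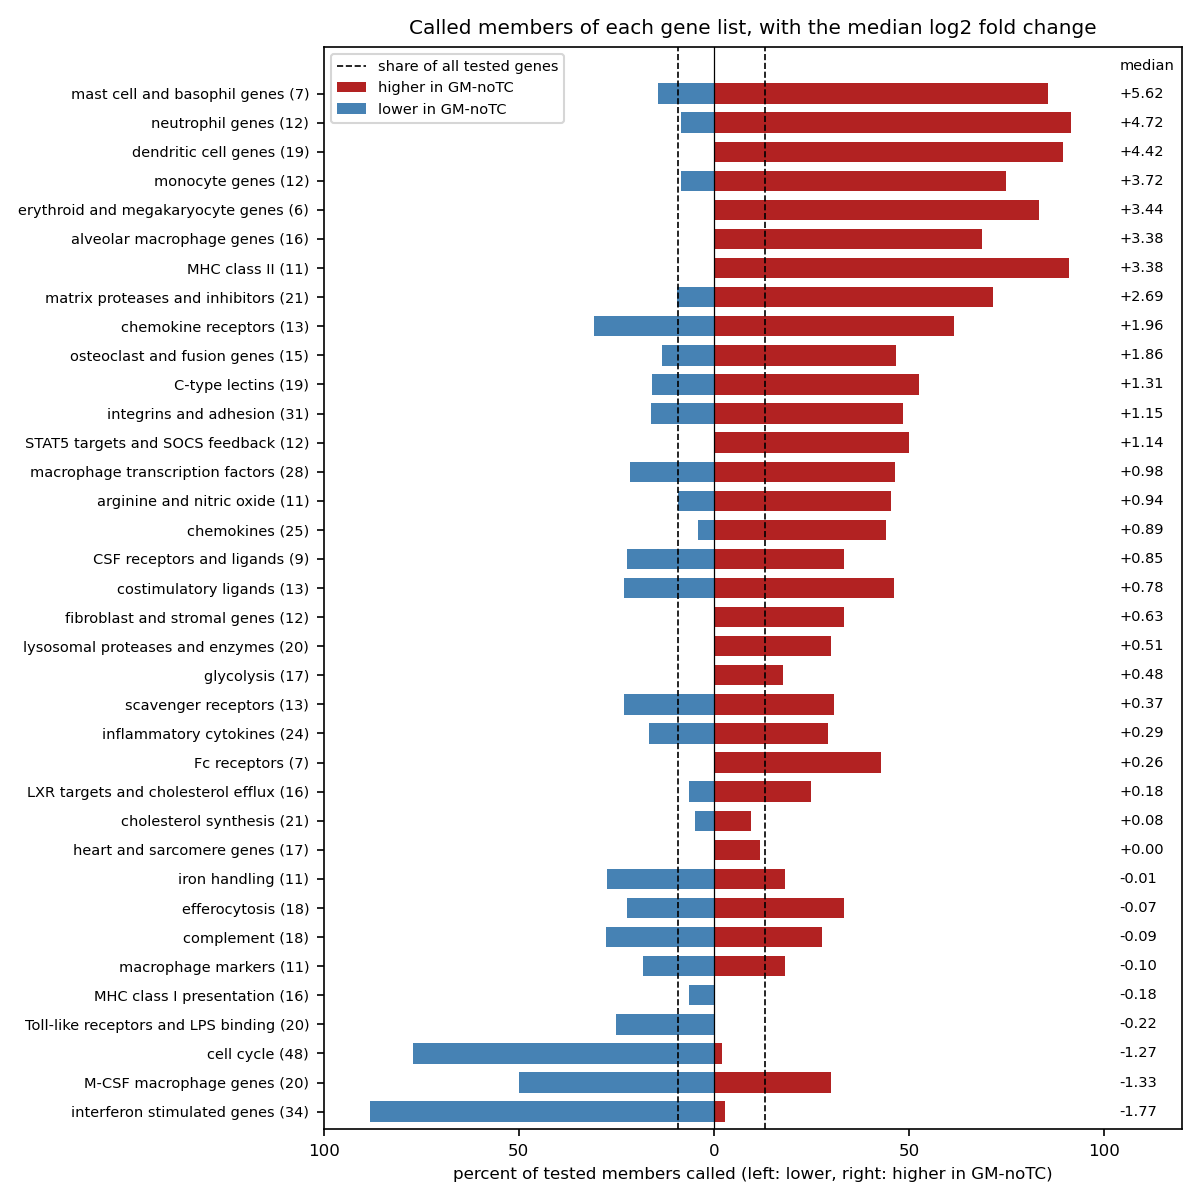
For each gene list with 6 or more tested members, bars give the percent of tested members called as higher or lower in GM-noTC, dashed lines the share of all tested genes (13% and 9.2%), and the right column the median log2 fold change. The MHC class II list has 10 of 11 members called as higher and the interferon stimulated list 30 of 34 called as lower.

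Arginine and nitric oxide genes were upregulated in 5 of 11 tested members and downregulated in 1. Slc7a2, an arginine importer, had 531 and 532 CPM in GM-noTC and 14.8 and 11.9 CPM in M-noTC, with M-noTC at 0.986% of the other libraries. Ass1, which rebuilds arginine from citrulline, rose 8.59-fold. Glycolysis genes were upregulated in 3 of 17 members and downregulated in 0, against 13% and 9.2% of all tested genes. Slc2a1, the glucose transporter GLUT1, had 148 and 152 CPM against 44.3 and 50.5 CPM, and the phosphofructokinase gene Pfkl rose 3.04-fold. Hk2, a hexokinase, rose 2.13-fold, and with library size only the log2 fold change of Hk2 was 0.8 and not called.

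Cholesterol synthesis genes were upregulated in 2 and downregulated in 1 of 21 tested members, against 13% and 9.2% of all tested genes. The upregulated Mvd and Dhcr7 were not called with library size only, where the log2 fold change of Mvd was 0.9 and the log2 fold change of Dhcr7 was 0.88. LXR targets and genes of cholesterol efflux were upregulated in 4 and downregulated in 1 of 16 tested members. Abcg1, a cholesterol exporter, had 558 and 561 CPM against 131 and 138 CPM, and Scd1, a fatty acid desaturase, 369 and 364 CPM against 56.3 and 52.6 CPM. The medians of the lists, 0.08 and 0.18, turned to -0.21 and -0.11 with library size only.

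Genes of osteoclasts and macrophage fusion were upregulated in 7 of 15 tested members and downregulated in 2. Acp5, the tartrate resistant acid phosphatase, had 295 and 294 CPM in GM-noTC and 7.58 and 6.18 CPM in M-noTC. Dcstamp, a membrane protein needed for fusion, had 48.9 and 47.4 CPM against 5.39 and 4.65 CPM. Tnfrsf11a, which encodes the osteoclast receptor RANK, was lower, at 18 and 19 CPM against 64.2 and 63.8 CPM. Lysosomal genes were upregulated in 6 of 20 members, which were 5 cathepsins and prosaposin, and downregulated in 0. Ctsh rose 5.77-fold and Ctsc 3.37-fold. Iron genes were upregulated in 2 and downregulated in 3 of 11 tested members, against 13% and 9.2% of all tested genes. Slc40a1, the iron exporter ferroportin, fell 3.53-fold, and Hmox1, which degrades haem, had 326 and 332 CPM against 331 and 331 CPM.

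Markers of other marrow cells were measured in the same libraries, and the part of such cells in the results was not tested. Of 18 neutrophil genes 12 were tested, 11 were upregulated and 1 downregulated, with a median log2 fold change of 4.72, or 3.43 with genes at 0 in M-noTC set to the floor. Their sum was 945 and 938 CPM in GM-noTC and 42.1 and 43.3 CPM in M-noTC, of which Mmp8, which is also a matrix protease of the list above, gave 906 and 902 CPM in GM-noTC. S100a8 and S100a9, abundant proteins of neutrophils, were at 4.24 and 3.84 CPM and at 5.14 and 3.77 CPM in GM-noTC. Ly6g and the granule genes Mpo, Elane and Ctsg did not pass the filter on low counts. Monocyte genes were upregulated in 9 and downregulated in 1 of 12 members, with a sum of 1820 and 1740 CPM in GM-noTC and 42.6 and 39.3 CPM in M-noTC, most of it Fn1 and Chil3 in GM-noTC. Ly6c2, the antigen of inflammatory monocytes whose reads may be shared with Ly6c1, had 15.1 and 19 CPM against 0.303 and 0.139 CPM.

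Mast cell and basophil genes were upregulated in 6 and downregulated in 1 of 7 tested members of 14, with a median of 5.62, or 2.61 with genes at 0 set to the floor. Gata2, a factor of these lineages, had 5.42 and 4.88 CPM in GM-noTC and 3 counts in all in M-noTC, a ratio of 125 with a counting interval of 42.2 to 608. Cpa3, a mast cell protease, had no count in M-noTC and was at least 12.2-fold higher in GM-noTC, where it was at 0.652 and 0.37 CPM. The list summed to 52.4 and 56.7 CPM in GM-noTC and to 76.4 and 78 CPM in M-noTC, where the downregulated Il6ra, an IL-6 receptor chain that is not limited to these cells, gave 67.5 and 70.6 CPM. Of 10 B cell genes 1 was tested and of 12 T and NK cell genes 3, and these lists summed to at most 0.998 and 3.58 CPM in the 4 libraries. The B cell gene Cd79b was called as lower, at 0.204 and 0.222 CPM against 0.607 and 0.604 CPM, and was not called by DESeq2 or when any 1 noTC library was left out, where the log2 fold change of Cd79b was -1.44, -1.56, -1.49 and -1.5. Klrb1c and Lck were the upregulated T and NK cell genes, both below 2 CPM, and without GM-noTC library 2 the log2 fold change of Lck was 0.9 and not called. Of 8 plasmacytoid dendritic cell genes 4 were tested, and Tcf4, Bst2 and Cox6a2 were lower in GM-noTC. Tcf4 had 25 and 26.6 CPM against 74.3 and 81 CPM, Bst2 is also an interferon stimulated gene, and Cox6a2 rested on 18 counts in M-noTC against 2. Without GM-noTC library 2, M-noTC library 1 or M-noTC library 2 the log2 fold change of Cox6a2 was -1.56, -2.44 and -2.64, and it was not called.

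Fibroblast and stromal genes were upregulated in 4 of 12 tested members of 14 and summed to 29.5 and 31.5 CPM in GM-noTC and 16.2 and 15.9 CPM in M-noTC. Postn, a matrix protein, had 14.6 and 15.9 CPM against 0.101 and 0.116 CPM, and the collagen genes Col1a1, Col1a2 and Col3a1 were not called. Erythroid and megakaryocyte genes were upregulated in 5 of 6 tested members of 13 and summed to 30.5 and 31.4 CPM against 4.78 and 4.65 CPM. Most of this was Pf4, which macrophages also express, at 21.4 and 20 CPM against 3.81 and 3.67 CPM. Heart and sarcomere genes summed to 1.14 and 1.48 CPM in GM-noTC and to 0.775 and 0.813 CPM in M-noTC. Of their 17 tested members Ckm and Mybpc3 were called as upregulated, both below 1 CPM, and Ckm had no count in M-noTC. Neither was called when any 1 noTC library was left out, where the log2 fold change of Ckm was 4.45, 4.02, 4.25 and 4.2 and the log2 fold change of Mybpc3 was 1.86, 1.42, 1.44 and 2.05.

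The same contrast was made between GM-TC and M-TC, in 4 libraries that the noTC contrast did not use. GM-TC cells had 1657 upregulated and 1069 downregulated DEGs against M-TC cells, 13.2% and 8.54% of the tested genes. Of the DEGs upregulated on noTC dishes, 1399 or 86.3% were also upregulated on TC dishes, and of the downregulated DEGs 823 or 71.5% were also downregulated. None (0) was called in the opposite direction by edgeR. The difference between the contrasts was tested as an interaction and called at an adjusted p under 0.05 and above 1 on the log2 scale, which gave 219 genes or 1.75% of those tested. The value was positive in 100 and negative in 119, where a positive value means that GM-CSF over M-CSF was higher on noTC dishes. Heart and sarcomere genes summed to 58.8 and 31.3 CPM in GM-TC and 83.2 and 46.4 CPM in M-TC, far above their noTC sums, and none of them was among the 219 genes. The part of these transcripts in the TC contrast was not tested.

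The size of the contrast differed between dishes for members of several groups described above. MHC class II genes were upregulated in 10 members on noTC and in 11 on TC dishes, with medians of 3.38 and 2.62. Ciita rose by 2.87 on noTC and 1.07 on TC dishes, an interaction of 1.8 (standard error 0.143, adjusted p = 2.1e-08 from edgeR). Its level was 26.3 and 23.5 CPM in GM-TC and 11 and 12.5 CPM in M-TC. Apoe had a log2 fold change of -1.88 on noTC and -3.28 on TC dishes, where M-TC held 2580 and 2580 CPM. F13a1, a transglutaminase of monocytes, was called on noTC dishes at 3.58 and not on TC dishes at 0.66, an interaction of 2.91. Itgax rose more on TC dishes, by 5.88 against 4.33, as did the fusion gene Dcstamp, by 5.24 against 3.28. The cell cycle list had 18 downregulated members on TC and 37 on noTC dishes, with medians of -0.74 and -1.27, and 5 of its members passed the interaction test. Ccnd1 was among them, at -3.4 on noTC and -2.19 on TC dishes. Interferon stimulated genes were downregulated in 30 members on both dishes, and 6 passed the interaction test. Ifit1, Ifit2, Ifit3 and Mx1 were among these, with GM-noTC levels at 0.929%, 1.04%, 1.21% and 1.54% of the other libraries.

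**Figure D5:**
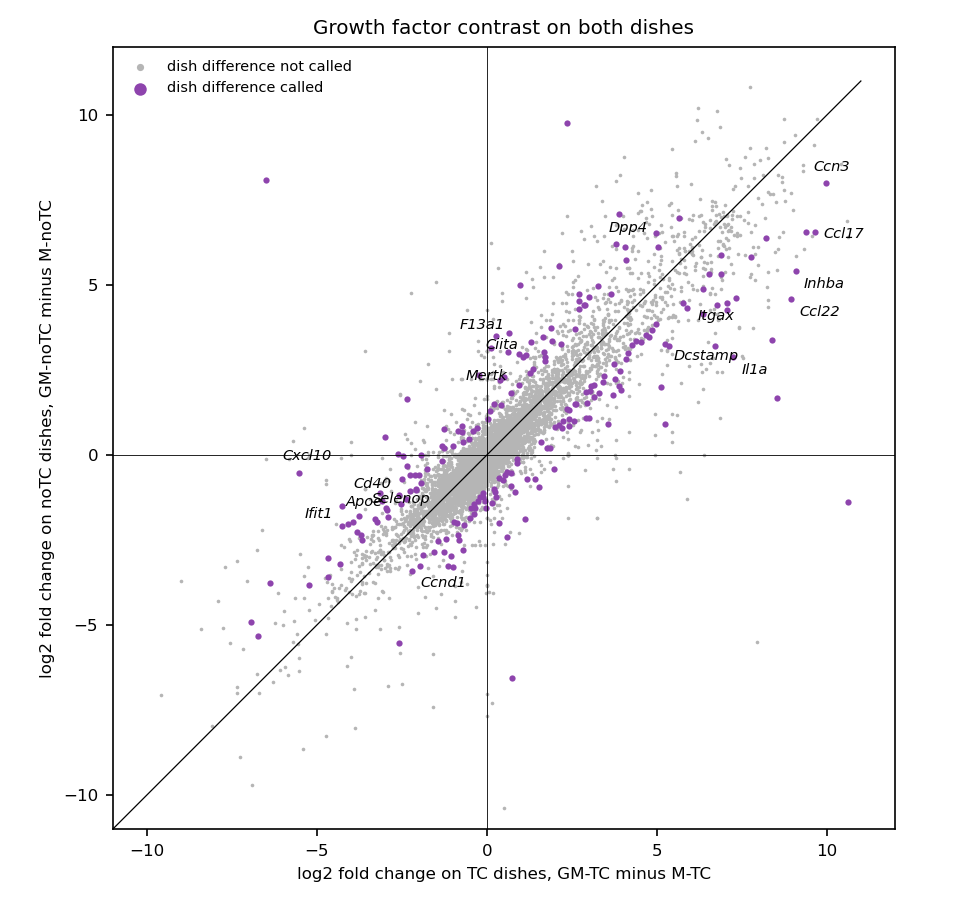
Each point is a tested gene, with the log2 fold change of GM-TC over M-TC on the x axis and that of GM-noTC over M-noTC on the y axis. The line marks equal contrasts, and the 219 genes whose contrast differed between dishes are purple, with Cxcl10 far above it and Ccl22 and Il1a far below it.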

How the data were processed

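Poly(A) RNA of GM-CSF and M-CSF grown mouse BMDMs was sequenced in 16 libraries of 8 groups with 2 libraries each. The authors aligned clean reads with HISAT2 and deposited expected counts per gene from RSEM, which are estimated counts without normalization. Per the submitters' processing notes, fastp 0.18.0, Bowtie2 2.2.8 and StringTie 1.3.1 were also used. Which genome build and annotation were used is not given in the sources used here. Between 6.56% and 8.19% of the values in a library were not whole and were rounded to whole numbers.

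Counts were tested with edgeR 4.0.16 (quasi-likelihood test, TMM factors, filter by expression, all 16 libraries in 1 fit of 8 groups, 8 residual degrees of freedom) in R 4.3.3 with limma 3.58.1, with Benjamini-Hochberg adjustment over 12514 genes. DEGs had an adjusted p under 0.05 and a fold change above 2. All 16 value columns were matched to samples by name, and 0 were left unmatched. In simulated counts for GM-noTC against M-noTC over 12381 genes, edgeR called 50 of 50 genes changed by 2.5-fold and 3 unchanged genes. The changed genes were drawn only from genes above a minimum level, and the simulated spread was the fitted one. Recovery of changes in scarce genes was therefore not tested.

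The members and the 39 gene lists were chosen with earlier results of these data known, so list counts and medians are descriptions. Genes were named by 3 rules. These were the 10 largest changes per direction among DEGs without overlap at 20 CPM or more in the higher group, leaving out predicted and clone models, then the key members of each list, and up to 2 further called members per list and direction. Other list members were named after their values were seen. Results of a few members are not reported here, although list counts, medians and sums include them. Alternatives were DESeq2 1.42.0, other scalings, no filter, 4 libraries only, a replicate block, each library left out, an unadjusted p, a fold change above 1.5 and subtraction of the share of the other libraries. The main fit did not pair GM-noTC with M-noTC by library number. Deviations of same-numbered libraries correlated at -0.013 over 12514 genes. With 2 libraries a group this value cannot show whether they share a mouse or a preparation.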

Additional observations from a re-analysis of the deposited data

Results flagged for a closer look

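For 38 genes selected for naming, the growth factor contrast differed between noTC and TC dishes by the interaction test of edgeR (adjusted p under 0.05 and above 1 on the log2 scale, called in 1.75% of tested genes). Each value given here is the noTC contrast minus the TC contrast on the log2 scale, so that a negative value means a larger GM-CSF over M-CSF ratio on TC dishes. Among MHC class II and T cell contact genes, the values were 1.8 for Ciita, 1.12 for H2-Ab1 and 1.72 for Cd40. Among dendritic cell genes, the values were -1.56 for Itgax, -3.07 for Ccl17, -4.36 for Ccl22, 2.06 for Dpp4 and 1.56 for Clec10a. Among M-CSF macrophage genes, the values were 1.4 for Apoe, 1.07 for Selenop, 1.1 for C1qa, 1.1 for Mertk and 2.91 for F13a1. Among cytokines, the values were -4.36 for Il1a, -1.85 for Il1b, -3.67 for Inhba and 1.98 for Tnfsf10. Among other chemokines and receptors, the values were -1.45 for Ccl2, 5.01 for Cxcl10 and -1.03 for Ccr1. Among interferon stimulated genes, the values were 2.17 for Ifit1, 1.64 for Ifit2, 1.43 for Ifit3 and 1.2 for Mx1. Among osteoclast, matrix and alveolar genes, the values were -1.05 for Ctsk, -1.97 for Dcstamp, -1.28 for Mmp12 and -1.84 for Olr1. The other genes were Ccn3 at -1.99, Clec4a1 at 1.4, Socs2 at 1.3, Slc7a2 at -1.2, Ly6c1 at 4, Kit at -1.1, Egr2 at -1.05, Ccnd1 at -1.22 and Dcn at 6.12. Several of these levels lay near the share of the other libraries. In M-noTC, Ccl22 stood at 0.665%, Il1a at 0.672%, Inhba at 0.582%, Il1b at 0.71%, Olr1 at 0.858%, Ccn3 at 0.909%, Ccl17 at 0.939% and Slc7a2 at 0.986% of the others. In GM-noTC, Cxcl10 stood at 0.681%, Cd40 at 0.876%, Ifit1 at 0.929% and Ifit2 at 1.04%. Of these, Ccl22, Il1a, Inhba, Olr1 and Ccl17 in M-noTC and Cxcl10 and Cd40 in GM-noTC were among the genes from which the share was read. So was Tnfsf10 in GM-noTC, with an excess over TC of 0.838%. With the share subtracted, the interaction was called as positive in 91 genes and negative in 102, and 175 calls were shared with the 219 of the main run. The part of the share in the difference of each gene named here was not tested. Dcn and Ly6c1 rested on 20 counts against 0 and 31 counts against 1 in the noTC libraries.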

How the results depend on the processing

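Under every alternative run, the number of upregulated DEGs between GM-noTC and M-noTC lay within 1.5 times 1622, from 1360 with library size only to 2276 with a fold change above 1.5. Downregulated DEGs numbered 1716 with library size only and 2002 with a fold change above 1.5, against 1151, and on TC dishes 1688 and 1863, against 1069. Leaving out 1 noTC library gave 1571 to 1600 upregulated and 1128 to 1153 downregulated DEGs. On TC dishes leaving out 1 library gave 1580 to 1674 and 1023 to 1137, and for the interaction 78 to 136 positive and 87 to 135 negative calls. Interaction calls numbered 193 and 214 with an unadjusted p and 241 and 337 above 1.5-fold. With the share subtracted they numbered 91 and 102. No replicate pairing is given by the labels beyond the number, and the replicate block gave 1616 and 1147 DEGs, or 1507 and 1137 on 4 libraries. DESeq2 gave 1578 and 1116 DEGs on 16 libraries. For named genes, 3616 values kept their side of the threshold, 23 newly passed and 39 no longer passed. Among genes called in either run, 0 changed sign. Sign changes of genes called in neither run are within the 3616. After subtraction of the share these included Il6, from 0.28 to -0.7, and Ccl5, from 0.03 to -0.45 on the log2 scale. Il6 is among the genes from which the share was read in both groups. List medians that changed sign were inflammatory cytokines at -0.14 after subtraction of the share, complement at 0.07 without M-noTC library 2 (from -0.13 to 0.07 with 1 library left out), and efferocytosis at 0.01 with no filter, 0.04 by edgeR on 4 libraries and with the block on 4 libraries, 0.05 by DESeq2 on 4 libraries and 0.09 without M-noTC library 2. With library size only, Fc receptors turned to -0.03, cholesterol synthesis to -0.21 and LXR targets to -0.11. Iron handling turned to 0.01 by DESeq2 on 4 libraries. B cell genes turned to 2.22 with no filter and to 1.56, 0.98 and 2.16 without GM-noTC library 1, M-noTC library 1 and M-noTC library 2, where other members enter the test, with -1.56 as the lowest value with 1 library left out. The cause of the other changes was not tested. Depth limits genes below about 0.14 CPM, where 3 counts or fewer stand behind a value.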
